A study of Caenorhabditis elegans with 2 samples.

Results

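The genes for subunits of the snRNA-activating protein complex (SNAPc) of *Caenorhabditis elegans* were examined as binding sites of one of their own products, SNPC-4. They were taken by name: *snpc-4*, *snpc-1.1*, *snpc-1.2*, *snpc-1.3*, *snpc-3.1*, *snpc-3.2* and *snpc-3.4*, which are 7 of the 19985 protein-coding genes and of the 46926 genes of all kinds in the annotation. For each, every region was collected whose summit (the position of highest signal in the region) lay within 1000 bp of the annotated 5' end of the gene. Chromatin immunoprecipitation followed by sequencing had been carried out on whole hermaphrodite young adults of strain YL487, harvested 60 h after larvae arrested by starvation at the first stage had been released. The worms stably expressed SNPC-4 from a transgene, fused at its C terminus to GFP and FLAG, and chromatin was precipitated with anti-GFP, although snpc-4 is what the labels enter under antibody. The only group held 2 biological replicates, both of this strain, and no untagged or mutant group was analysed here. The transgene may add *snpc-4* sequence to the genome, and its extent, copy number and site of insertion are not stated in the sources at hand.

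Each replicate and the pool of both gave a list of 30000 candidate regions, ranked here by the deposited signal from 1 (strongest), and 4675 of the pooled candidates passed the irreproducible discovery rate (IDR) threshold and are called IDR peaks. The IDR peaks were the strongest of the pooled candidates, with a signal of at least 87.3. No source at hand states the scale of the signal, so signals were set against each other only within a list. Read depth is unknown from these lists.

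SNAPc binds a sequence element upstream of small nuclear RNA genes and recruits the transcription machinery to them. The largest, DNA-binding subunit of the human complex, SNAP190, has SNPC-4 as its homologue in the worm. The SNPC-1 proteins are homologues of the human subunit SNAP43 (SNAPC1) and the SNPC-3 proteins of SNAP50 (SNAPC3), so the worm has several paralogs for each of the smaller subunits. In the worm germ line SNPC-4 is also needed, with PRDE-1, TOFU-4 and TOFU-5, for the transcription of piRNA genes, and SNPC-1.3 is needed for the piRNAs of the male germ line.

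Sequences at IDR summits are shown for *snpc-3.1* and *snpc-3.4*, because both are promoters of a SNAPc subunit that carried a peak. They are in the ce11 build, in the direction of the SNAPc gene. For *snpc-3.1* the 100 bases on either side of the summit are given, chrIV:5486394-5486594 on the minus strand, and the summit is the middle base. Its 12 capitals mark the bases that differ from the aligned base upstream of the near-identical paralog *snpc-3.2*, where no region was listed.
snpc-3.1: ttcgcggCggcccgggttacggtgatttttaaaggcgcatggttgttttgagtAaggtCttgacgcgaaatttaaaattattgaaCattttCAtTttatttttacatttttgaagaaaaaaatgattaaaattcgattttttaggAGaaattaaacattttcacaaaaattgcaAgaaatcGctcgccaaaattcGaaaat
For *snpc-3.4* the stretch from 100 bases before the summit to the last base before the gene is given, chrIII:4019902-4020036 on the plus strand, and its 11 capitals are centred on the summit.
snpc-3.4: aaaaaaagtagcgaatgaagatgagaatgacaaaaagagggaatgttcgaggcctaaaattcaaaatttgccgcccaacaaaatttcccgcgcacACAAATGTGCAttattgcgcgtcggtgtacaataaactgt
The *snpc-3.1* sequence had a GC content of 31.3% and the *snpc-3.4* sequence of 40.0%.

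SNPC-4 peaks lay within 1000 bp of the 5' end at 3 of the 7 SNAPc subunit genes: *snpc-4* itself, *snpc-3.1* and *snpc-3.4*. Of all protein-coding genes, 11.9% had an IDR summit as near (2382 of 19985, exact binomial 95% interval 11.5 to 12.4%). At 2 of the 3, *snpc-4* and *snpc-3.4*, no other gene of any kind had its 5' end nearer to the summit, which held for 58.7% of the protein-coding genes with an IDR summit, whereas the *snpc-3.1* summit was nearer to a neighbouring gene. A pooled candidate was present at 4 of 7, with *snpc-1.1* added, against 32.0% of protein-coding genes. The same 4 had a candidate in each of the replicates, against 30.1%. No candidate of any list was present at *snpc-1.3* or *snpc-3.2*, and *snpc-1.2* had 1 in replicate 2 only. With 7 genes and no second group, no test of these counts was made. No 5' end of an annotated small RNA gene lay within 1000 bp of the 5' end of any of the 7 genes.

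**Figure D1:**
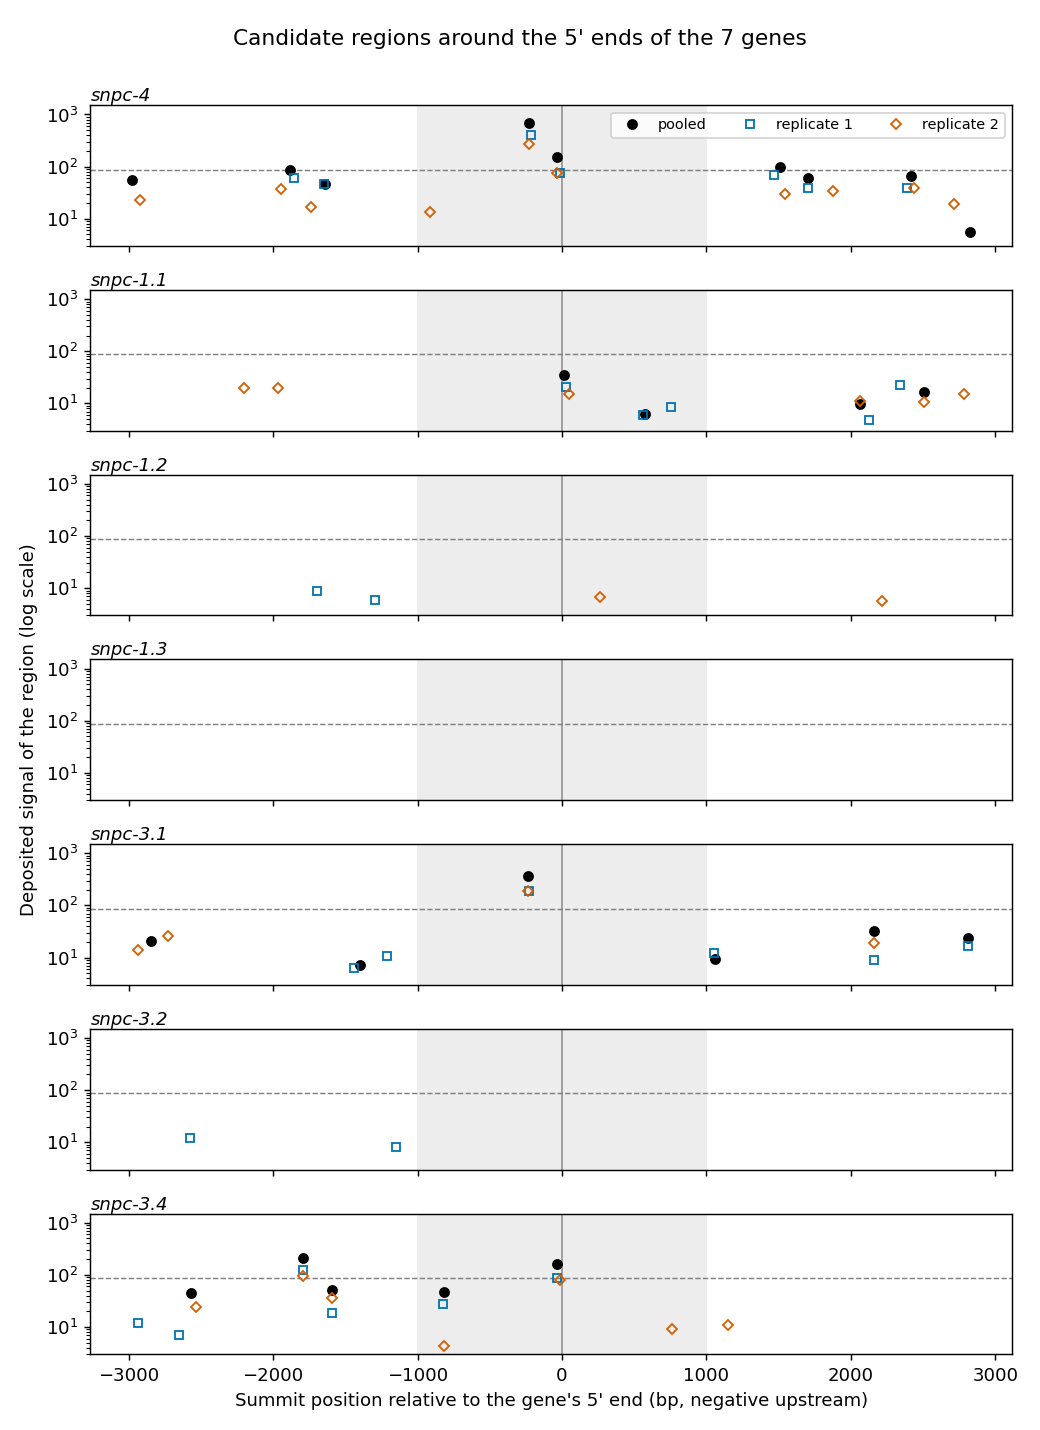
Summits of candidate regions from the pooled list (filled circles) and from replicates 1 (squares) and 2 (diamonds) around the 5' end of each gene, with the distance in bp on the x axis and the deposited signal on a log y axis. The grey band is the window of 1000 bp on either side and the dashed line the lowest signal of a pooled IDR peak, 87.3, which applies to the filled circles alone. Filled circles inside the band lie above the line at *snpc-4*, *snpc-3.1* and *snpc-3.4*.

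The gene for the largest subunit, *snpc-4* (WBGene00001568, chrI:8962322-8966129, plus strand, 13 exons), had the strongest peak of the set. Its main IDR summit lay 231 bp upstream of the 5' end, in intergenic sequence, with a signal of 694 and rank 491 of 30000. The replicates placed it at the same site: the summit of replicate 1 lay 214 bp upstream at rank 438 with a signal of 408, and that of replicate 2 lay 231 bp upstream at rank 654 with a signal of 277. The neighbour on the other side, F32H2.11, starts 1209 bp from the pooled summit and is read in the opposite direction.

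A second IDR summit lay 32 bp upstream of *snpc-4*, with a signal of 150 and rank 2592. In replicate 1 it was found 14 bp upstream at rank 2902, and in replicate 2 it was found 31 bp upstream at rank 2807. The list gives both pooled summits with the same region coordinates, chrI:8961883-8962289, 407 bp wide, and the second summit falls 1 base past the end of that region. Such shared coordinates were found for 407 of the 4675 IDR peaks (8.71%), but a summit outside its own region for 3. A further candidate, 916 bp upstream at rank 16945, was listed in replicate 2 only and was nearer to F32H2.11.

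**Figure D2:**
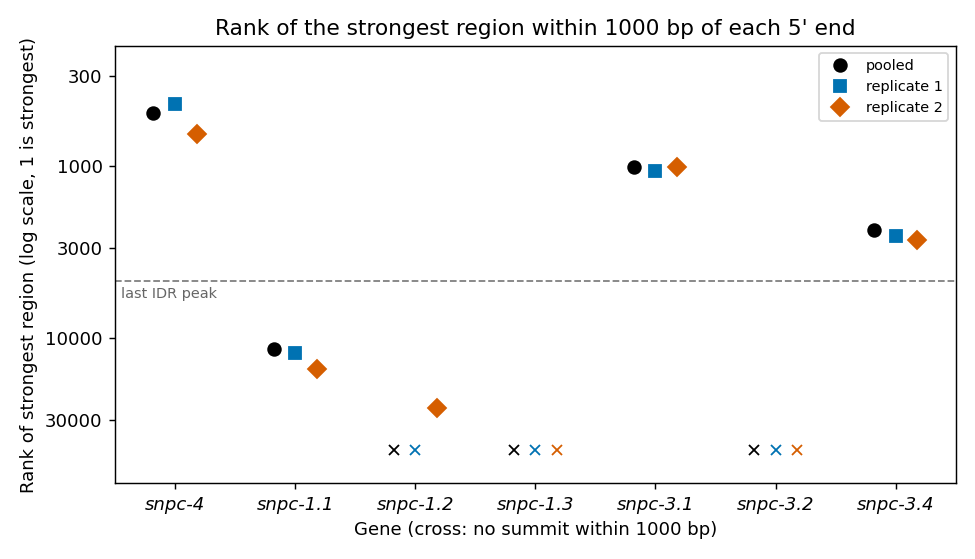
Rank of the strongest region within 1000 bp of each gene's 5' end in the pooled list and in each replicate's list, on an inverted log axis on which 1 is the strongest, with crosses where a list has no such region. The dashed line is rank 4675, the last IDR peak. The ranks of *snpc-4*, *snpc-3.1* and *snpc-3.4* stand above the line in all 3 lists, and those of *snpc-1.1* and *snpc-1.2* below it.

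The SNPC-1 group, homologues of SNAP43, had no IDR peak at any of the 3 genes examined. The nearest to one was *snpc-1.1* (WBGene00015513, chrII:7779297-7781301, minus strand), with a pooled candidate 12 bp inside the gene, in the 5' untranslated region. Its signal was 34.5 and its rank 11635. Replicate 1 had the summit 30 bp inside at rank 12156 and replicate 2 had it 49 bp inside at rank 15177, so it was seen in each replicate but far below the IDR limit. A neighbour starts close by: *spdl-1*, which encodes a spindle checkpoint protein, starts 265 bp from that of *snpc-1.1* in the opposite direction, 277 bp from the pooled summit. Weaker pooled and replicate 1 candidates, all between ranks 23746 and 28608, lay between 558 and 758 bp inside *snpc-1.1*. The nearest IDR summit was 24222 bp away.

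At *snpc-1.2* (WBGene00012715, chrIII:13165659-13169541, minus strand) the 1 candidate within the window was that of replicate 2, in coding sequence 260 bp inside the gene, with a signal of 6.71 and rank 25518. Replicate 1 had a summit 1292 bp upstream at rank 27864, and the pooled list had none nearer than 33748 bp. At *snpc-1.3* (WBGene00017265, chrV:5437084-5439168, minus strand), the paralog of the male piRNA pathway, the nearest pooled summit was 43175 bp away. In replicate 1 the nearest was at 4878 bp and in replicate 2 at 38239 bp. The animals were hermaphrodites collected as young adults, and no male sample was analysed here, so the values describe this stage and sex alone.

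The 3 SNPC-1 proteins compared are diverged from each other. SNPC-1.2 and SNPC-1.3 were identical at 45.2% of aligned residues, SNPC-1.1 and SNPC-1.2 at 30.8%, and SNPC-1.1 and SNPC-1.3 at 28.5%. In the 1000 bp on either side of their starts, no 36-base stretch of *snpc-1.1* or *snpc-1.3* recurred in the genome, and 3.42% of those upstream and 3.83% of those downstream of the *snpc-1.2* start did.

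In the SNPC-3 group, homologues of SNAP50, *snpc-3.1* (WBGene00015098, chrIV:5484039-5486258, minus strand) had an IDR summit 236 bp upstream, the one at the centre of the first sequence above. The region, chrIV:5486427-5486726, was 300 bp wide, with a signal of 369 and rank 1016. Replicate 1 gave the summit 231 bp upstream at rank 1066 with a signal of 187, and replicate 2 gave it 236 bp upstream at rank 1012, also with a signal of 187. The rank at this gene therefore moved less between the replicates than that at *snpc-4*. The interval is a divergent promoter: *puf-7*, which encodes an RNA-binding protein of the PUF family, starts 455 bp from *snpc-3.1* on the other strand. The summit was 219 bp from the *puf-7* start and thus slightly nearer to it, so the peak cannot be assigned to either gene.

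At *snpc-3.4* (WBGene00011367, chrIII:4020037-4021883, plus strand) the IDR summit lay 35 bp upstream of the start. Its signal was 164 and its rank 2348. The summit of replicate 1 was 34 bp upstream at rank 2564 with a signal of 85.8, and that of replicate 2 was 11 bp upstream at rank 2677 with a signal of 78.4. The pooled region was 149 bp wide, against a median of 464 bp over all IDR peaks, and 4.26% of IDR peaks were as narrow. A single width was shared by 39.6% of IDR peaks. The region at this summit was 480 bp wide in replicate 1 and 500 bp in replicate 2, so only the pooled region was narrow. A weaker pooled candidate lay 816 bp upstream at rank 8846. In replicate 1 that candidate ranked 8915 and in replicate 2 it ranked 29572, so the replicates differed there far more than at the start of the gene. A further candidate, in an intron 760 bp inside the gene, was listed in replicate 2 only, at rank 21994 with a signal of 9.10. The next IDR summit, outside the window at 1793 bp upstream and rank 1816, was 127 bp from the 5' end of C36E8.10, annotated as a non-coding RNA gene.

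At *snpc-3.2* (WBGene00021667, chrI:252107-254294, plus strand) no region was listed within the window. The nearest pooled summit was 13214 bp upstream at rank 24181, and the nearest IDR summit was 58785 bp away. Replicate 1 had a summit 1149 bp upstream at rank 24400, with a signal of 7.97, and replicate 2 had none nearer than 13149 bp.

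The lack of a region at *snpc-3.2* stands beside the peak at *snpc-3.1*, its near copy. The 2 proteins of 425 residues were identical at 419 positions (98.6%), whereas identity to SNPC-3.4 was 34.0% for SNPC-3.1 and 34.8% for SNPC-3.2. The likeness extends into the upstream DNA: a local alignment began 563 bp before the *snpc-3.1* start and reached past it, with 617 of 659 aligned bases identical. In the 201 bases around the *snpc-3.1* summit, 189 (94.0%) were identical in *snpc-3.2*, with no gap. The base aligned with the summit lies 271 bp upstream of *snpc-3.2*, and no candidate region of the pooled list or of either replicate covered it. The nearest summit to that base was 12943 bp away in the pooled list, 878 bp in replicate 1 and 12878 bp in replicate 2.

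Reads from near-identical copies may be placed at either copy, placed at random or dropped, and how the peak lists treated them is not stated in the sources at hand. The text listing beside the lists names signal tracks of unique reads, and does not say whether the peaks were called from unique reads. The stretches in which a read could be told apart were therefore counted. In the 201 bases around the *snpc-3.1* summit, 29.5% of 36-base stretches and 50.7% of 50-base stretches occurred once in the genome. Of the 36 stretches of 36 bases that cover the summit base itself, 6 recurred, so the recurring sequence lay mostly beside the summit. In the aligned 201 bases of *snpc-3.2* the shares were higher, 80.1% and 96.7%. These shares hold for stretches of 36 and 50 bases only, and the read length is not stated in the sources at hand. Over the whole IDR region of *snpc-3.1*, 121 of 265 stretches of 36 bases (45.7%) recurred, in at most 3 copies each, at 3 other loci. Of these loci, 1 was at *snpc-3.2*. None of the 3 lay in an IDR region, and 1 lay in a pooled candidate region. The IDR regions cover 1.82% of the genome and the pooled candidate regions 11.5%, so 3 loci are too few to compare with these shares. The IDR regions of *snpc-4* and *snpc-3.4* held no recurring stretch. The part of read placement in the difference between *snpc-3.1* and *snpc-3.2* was not tested.

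**Figure D3:**
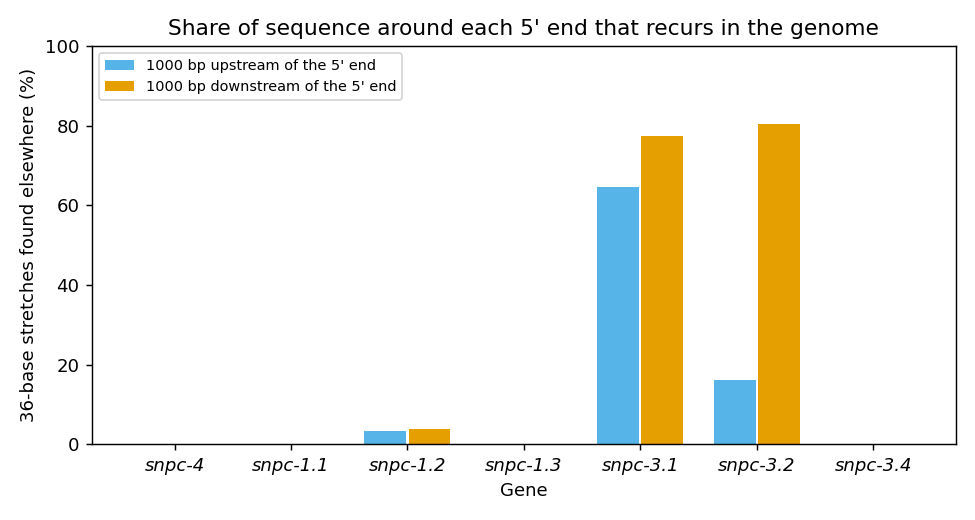
Percent of 36-base stretches that occur elsewhere in the genome, in the 1000 bp upstream and the 1000 bp downstream of each gene's 5' end. The bars of *snpc-3.1* reach 64.7% upstream and 77.5% downstream and those of *snpc-3.2* 16.2% and 80.5%, those of *snpc-1.2* stay under 4%, and the other 4 genes are at 0.

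Most of the recurring sequence upstream of *snpc-3.1* was not shared with *snpc-3.2*. Of the 36-base stretches in the 1000 bp upstream, 64.7% recurred somewhere in the genome and 116 of 965 at the *snpc-3.2* locus. Downstream, 77.5% recurred and 62.2% were shared with *snpc-3.2*. At *snpc-3.2*, 16.2% upstream and 80.5% downstream recurred. With 50-base stretches the upstream shares were 49.4% at *snpc-3.1* and 5.78% at *snpc-3.2*.

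Among the 2382 protein-coding genes with an IDR summit within 1000 bp, ordered by their strongest peak, *snpc-4* took place 218, *snpc-3.1* place 507 and *snpc-3.4* place 1315. The median signal of these genes was 180, which the peaks of *snpc-4* and *snpc-3.1* exceeded and that of *snpc-3.4* did not reach. Without the genes that had a small RNA 5' end within 1000 bp of the summit, the places were 117, 334 and 1015 of 1910. Other protein-coding genes were compared with *snpc-4* in rank over the pooled list and both replicates. Genes whose summit had another gene's 5' end within 1000 bp were left out of this comparison. Among the rest, the genes most like *snpc-4* were *fcd-2*, B0410.3 and *fbxa-190*. The homologue of the Fanconi anaemia protein FANCD2, *fcd-2*, was at ranks 511, 487 and 580 in the pooled list and replicates 1 and 2. B0410.3 was at 512, 498 and 568, and the F-box gene *fbxa-190* at 524, 514 and 604. Likeness was measured as the sum of absolute differences of log10 rank over the 3 lists, which was 0.116 for *fcd-2*, 0.135 for B0410.3 and 0.132 for *fbxa-190*.

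**Figure D4:**
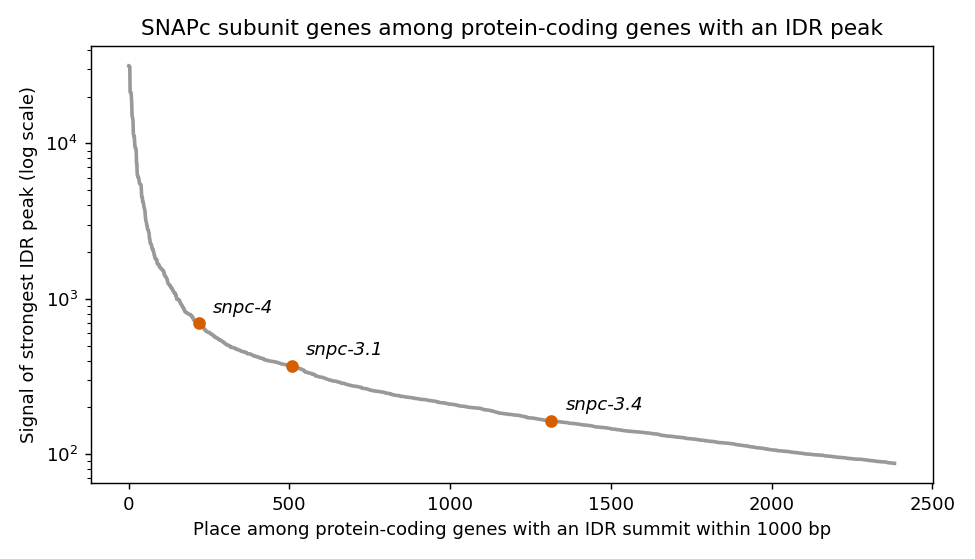
Signal of the strongest IDR peak within 1000 bp of the 5' end, on a log axis, against the place in that order, for 2382 protein-coding genes (grey line) with the 3 SNAPc subunit genes as points. The genes *snpc-4* and *snpc-3.1* lie at places 218 and 507, and *snpc-3.4* lies past the middle at 1315.

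The gene *snpc-4* also stood in a run of candidates longer than that of any other of the 7 genes outside the piRNA gene domains. With summits at most 5000 bp apart joined, the pooled list gave 29 candidates over 24403 bp, chrI:8946757-8971160, and 8 of them were IDR peaks. The gap to the next summit was 78103 bp on the left and 21515 bp on the right. Replicate 1 gave 28 candidates over 24433 bp and replicate 2 gave 30 over 28766 bp, so the run was present in both. It covered 12 protein-coding 5' ends, and so was not limited to *snpc-4*.

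Within the body of *snpc-4* the run held 5 pooled candidates, of which 1 was an IDR peak, in coding sequence 1506 bp inside the gene, with a signal of 96.3 and rank 4188. The others had signals from 5.56 to 67.4. The strongest peak of the run was not at *snpc-4*: it lay 83 bp from the 5' end of *spd-2*, a centrosome gene, at rank 305 with a signal of 1156. It was also the strongest IDR peak within 1000 bp of the 5' end of F32H2.10, so this peak cannot be assigned to either gene. Another, in coding sequence of the Mediator subunit gene *mdt-31*, had rank 554 and a signal of 612. At the left, a peak of rank 552 and signal 613 overlapped a tRNA gene, WBGene00014389, and the non-coding RNA gene F53B6.11. The last, at rank 2424, was 21 bp from the start of *thoc-3*, which encodes a subunit of the THO complex.

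Of the 2065 pooled runs outside the piRNA domains, 156 (7.55%) held as many candidates as that at *snpc-4*, and the median run held 6 candidates. Around single genes, 26 pooled candidates lay within 12500 bp of the *snpc-4* start, and 1.92% of the 19044 protein-coding genes outside the domains had as many (median 3). A transgene of *snpc-4* with its surroundings would put added copies of this sequence into the chromatin of these worms. Since its extent is not stated in the sources at hand, its part in the run and in the peaks at *snpc-4* was not tested.

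**Figure D5:**
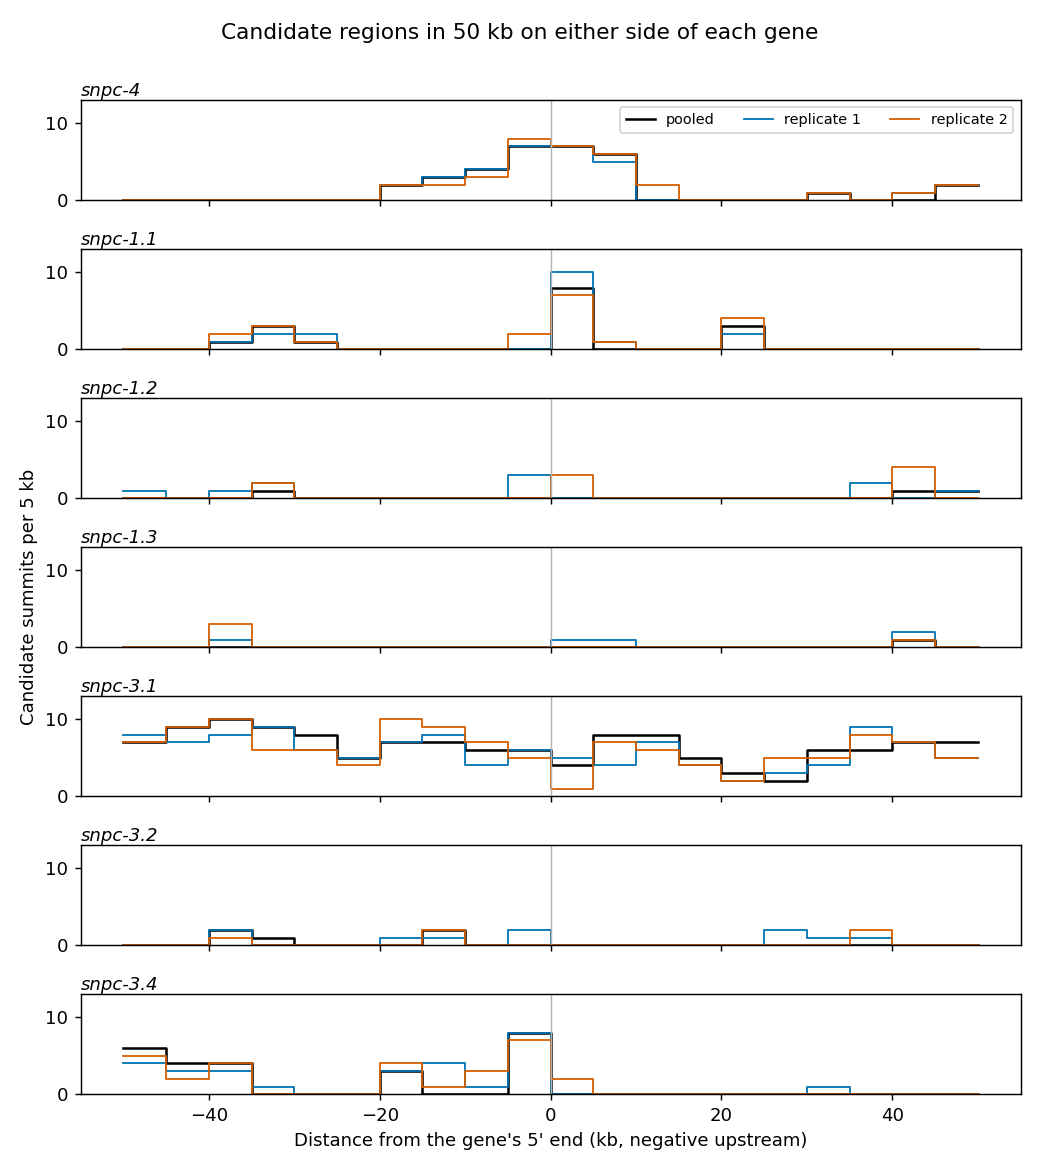
Number of candidate summits per 5 kb (y axis) in the 50 kb on either side of each gene's 5' end (x axis, kb), in the pooled list and each replicate. A block of candidates surrounds *snpc-4* in all 3 lists with none in the 5 kb steps beyond it on the upstream side, candidates are present throughout at *snpc-3.1*, and few or none at *snpc-1.2*, *snpc-1.3* and *snpc-3.2*.

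The surroundings of the other members differed. The start of *snpc-3.1* lies in one of the domains of chromosome IV that are dense in piRNA genes (4.5 to 7 Mb and 13.5 to 17.2 Mb), although the nearest piRNA gene, 21ur-1993, starts 3584 bp away. There 30 pooled candidates lay within 12500 bp, which is not many for that domain: the median of the 941 protein-coding genes inside the domains was 34, and 69.1% had as many. Its run held 1047 pooled candidates over 727515 bp, of which 82 were IDR peaks. At *snpc-1.1* and *snpc-3.4* there were 8 pooled candidates within 12500 bp, a number reached by 32.2% of genes outside the domains. The pooled list had none within that distance of *snpc-1.2*, *snpc-1.3* and *snpc-3.2*, where the replicate lists had up to 3 each.

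Sequence motifs were searched for on both strands. They were chosen with earlier results of these data known, so their shares at IDR summits may not be independent of that choice. TGTCGG was present within 100 bp of 23.3% of IDR summits and of 6.38% of other pooled candidates, and in 6.88% of protein-coding promoters, taken from 250 bp before to 50 bp after the 5' end. CTGTTTCA, the core of the upstream motif of piRNA genes, was present in 8.09%, 7.36% and 2.32%. Among the 7 genes, 1 held TGTCGG and none CTGTTTCA in the promoter window. The TGTCGG of *snpc-4* is on the gene's strand and begins 29 bp inside the gene, overlapping the start codon, and so lies 61 bp downstream of the second IDR summit. No match to either motif was found within 100 bp of the main, stronger summit of *snpc-4*, or of the IDR summits of *snpc-3.1* and *snpc-3.4*. This says only that these letters are not in those windows.

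Of the 3 genes for the other factors of piRNA transcription, none had an IDR peak and 1 had a pooled candidate. The shares of all protein-coding genes are 11.9% and 32.0%, and 3 genes are too few to set apart from them. The candidate was at *prde-1*, 66 bp upstream at rank 5064 with a signal of 81.1, just below the limit of the IDR list. No pooled candidate was listed at *tofu-4* or *tofu-5*. Of 11 further genes of the piRNA pathway with a match in the annotation, 1 had an IDR summit and 4 a pooled candidate, near the shares of all protein-coding genes, 11.9% and 32.0%. The IDR summit was 326 bp upstream of *tofu-1* at rank 1763, but 19 bp from the start of *ruvb-1*, which encodes a RuvB-like ATPase. Of 4 partners and regulators (*tbp-1*, *ttb-1*, *brf-1* and *tra-1*), none had an IDR summit and 3 had a pooled candidate, the strongest at *tra-1*, 561 bp upstream at rank 5590. With the same 11.9% and 32.0% as background, a list of 4 genes is too short to set apart from other genes.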

How the data were processed

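Per the labels, both samples are biological replicates of 1 group. The authors deposited peak lists without headers in which each region has a signal value, whose scale is not given. Neither a peak caller nor an aligner, nor their versions or treatment of reads with several matches, is given in the sources used. Per the text listing beside the lists, they were made from alignments of the replicates and a control; it also names signal tracks of unique reads.

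Summits are the start plus the deposited offset, counted from 1. Genes came from Ensembl release 115 (WBcel235, the assembly of ce11) and sequence from RefSeq. Upstream regions were aligned locally from 600 bp before to 100 bp after the 5' ends, and 36- and 50-base stretches were counted over the genome on both strands. The 95% interval is exact binomial and covers only counting error. The tools were biopython 1.88, pandas 2.3.3, scipy 1.17.1, numpy 2.4.6 and matplotlib 3.10.9 under Python 3.11.15. The counting was tested on simulated regions.

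The members, lists, motifs and alternatives were chosen with earlier results of these data known, and no test was made. Named genes were all members, the neighbours of their regions, prde-1, tofu-4 and tofu-5, and listed genes with an IDR summit. The 3 genes nearest to snpc-4 in rank, among those with no other 5' end within 1000 bp of the summit, were named too. The strongest of the partners' candidates, the genes in the run at snpc-4 and the alignment with snpc-3.2 were added after values were seen. Of the 12 piRNA pathway genes listed, tofu-3 had no match.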

Additional observations from a re-analysis of the deposited data

How the results depend on the processing

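Of 44 alternatives, 38 left the value as it was or moved it little, and the strongest region of each member stayed on its side of rank 4675 in either replicate. The 3 genes with an IDR summit were the same with windows of 300, 500 and 2000 bp, other definitions of the 5' end and region overlap. For either replicate alone, its regions down to rank 4675 were used in place of IDR peaks, and the same 3 genes were found. Among the strongest 50% of IDR peaks there were 2, *snpc-4* and *snpc-3.1*. The share of protein-coding genes moved more: 6.36%, 8.73% and 17.0% in windows of 300, 500 and 2000 bp, 12.8% for any transcript's 5' end, 13.1% for any overlap with the window and 6.54% for the stronger 50%, against 11.9%. Windows set these shares by construction. In place of the pooled list, replicate 2 alone ranked *snpc-4* at 654 and replicate 1 alone at 438, while 5 members had a candidate in replicate 2 alone and 4 in replicate 1 alone. With overlapping regions merged, *snpc-4*, *snpc-3.1* and *snpc-3.4* ranked 443, 939 and 2160, and in the ce10 lists 491, 1017 and 2349. The alternatives for the nearest gene and for both replicates were added after the data were seen. Of these, a window of 2000 bp raised the 4 members with a candidate in each replicate to 5. The added member was *snpc-1.2*, with a summit 1292 bp upstream in replicate 1 and 260 bp inside the gene in replicate 2. These are different sites. No paired analysis was possible because there was 1 group. Depth is unknown, so an unlisted region is not shown to be unbound.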

Other observations

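A pair of genes that the annotation of RefSeq names as further paralogs was looked up as well. At *snpc-1.4* (chrII:4911771-4914218) there was 1 candidate within 1000 bp in the pooled list and in each replicate, and no IDR peak. At the pseudogene *snpc-3.3* (chrI:216028-217002) there was 1 in the pooled list and in replicate 2, none in replicate 1 and no IDR peak.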
